A study of Mus musculus with 6 samples.

Results

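The nuclear genes for subunits of mitochondrial complexes I to V, with the complex I assembly factors and a few close relatives that share their symbols, were compared between mouse heart RNA libraries labelled day 3 after myocardial infarction (MI) and day 3 after a sham operation; whether heart tissue or isolated cells gave the RNA is not clear from the labels. Members were chosen by symbol alone: names that begin with Nduf followed by a, b, c, s or v, Sdha to Sdhd, names that begin with Uqcr, Cox4 to Cox8 names, and names that begin with Atp5, with pseudogenes left out. The rule found 95 genes among the 17714 listed. Of these, 83 encode subunits: 37 of complex I, 4 of complex II, 8 of complex III, 17 of complex IV with Ndufa4 counted there, and 17 of complex V. The other 12 are 8 complex I assembly factors and 4 related genes (Ndufa4l2, Cox7a2l, Ndufb4c and Ndufs6b).

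The MI group held 3 libraries (MI 1, MI 2 and MI 3) and the sham group held 3 libraries (sham 1, sham 2 and sham 3), all from wild-type (WT) mice at day 3. The labels call the cells cardiac lymphatic endothelial cells, while the protocol text speaks of heart tissue or of primary endothelial cells and names a culture medium with serum. No sorting step is given. The labels do not say that the libraries came from separate animals, so p-values measure the spread between these libraries, which may be technical.

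Complexes I to IV pass electrons from NADH and succinate to oxygen through ubiquinone and cytochrome c, and complexes I, III and IV pump protons across the inner mitochondrial membrane as they do so. Complex V, the ATP synthase, uses the proton gradient to make ATP. Heart muscle is known for its dense mitochondria, and it uses muscle isoforms of several complex IV subunits (Cox6a2, Cox7a1 and Cox8b) beside or in place of the forms found in most cells (Cox6a1, Cox7a2 and Cox8a).

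The MI libraries held 21154342, 21553614 and 21689333 estimated counts, against 3591473, 3447739 and 3206732 in the sham libraries. MI 1 stood apart from the other MI libraries: the chi-square per gene between their counts was 37.3 for MI 1 against MI 2 and 22.5 for MI 1 against MI 3, compared with 4.28 for MI 2 against MI 3 and 1.55 to 1.79 between sham libraries. Such a chi-square rises with depth where counts vary beyond sampling. The deeper MI pairs and the sham pairs are therefore not on a common scale. Medians and calls that MI 1 changed are given with and without it. The labelled cell type was checked against its markers. Of 8 lymphatic markers, 6 were lower and 2 higher in MI, with a median log2 fold change of -2.23 and sums of 535.3 to 598.4 CPM in MI libraries and 643.9 to 664.9 CPM in sham libraries. The regulator Prox1 averaged 1.26 ± 0.456 CPM (counts scaled to library size) in MI libraries and 7.12 ± 0.548 CPM in sham libraries (SD, n = 3 each). Lyve1, a hyaluronan receptor of lymphatic endothelium and some macrophages, was 17.1-fold lower in MI, while Pdpn, which other cells also express, was 40.8-fold higher. The 14 macrophage and monocyte markers summed to 22750 to 25920 CPM in MI libraries and 4956 to 5188 CPM in sham libraries. The 12 pan-endothelial markers summed to 2062 to 2171 CPM in MI libraries and 9045 to 9203 CPM in sham libraries. These libraries are thus described as bulk RNA, in which fewer cells of a type and less RNA per cell cannot be told apart.

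Most respiratory chain genes were lower in MI libraries than in sham libraries. Of the 92 members with enough counts to be tested, 57 were lower in MI and 1 was higher at an adjusted p below 0.05 (edgeR's quasi-likelihood test, adjusted by Benjamini and Hochberg's method over the 13370 genes with enough counts), and 34 did not pass. Among all genes tested, 36.9% were lower and 36.4% were higher. Every MI library lay below every sham library at 57 of the 92 members, or 62.0%, against 38.1% of all genes tested. The median log2 fold change (MI minus sham) was -0.55 over the members, a 1.46-fold lower level, and -0.01 over all genes tested. By TPM, which scales for transcript length and library size, the members made up 1.75% ± 0.153 of all transcripts in MI libraries and 2.76% ± 0.066 in sham libraries (SD, n = 3 each). Lower by more than 2-fold were 13 of the 92 members, or 14.1%, a smaller share than the 21.2% of all genes tested. The 3 genes too low to test were the testis-type isoform genes Cox6b2 and Cox7b2 and the Ndufs6 relative Ndufs6b, with at most 13 estimated counts in any library.

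The size of these differences depended on how libraries were scaled, and the split of calls did as well. With scaling to total counts, 26.5% of all genes tested were higher and 49.6% lower, the median of all genes was -0.36, and 86 members were lower with none higher. A change of scaling moves all genes by nearly the same amount, so it could hardly alter the members' median minus the median of all genes. That difference was -0.62 to -0.51 on the log2 scale over 10 scalings, tests and filters. With each library left out it was -0.60 to -0.43.

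**Figure D1:**
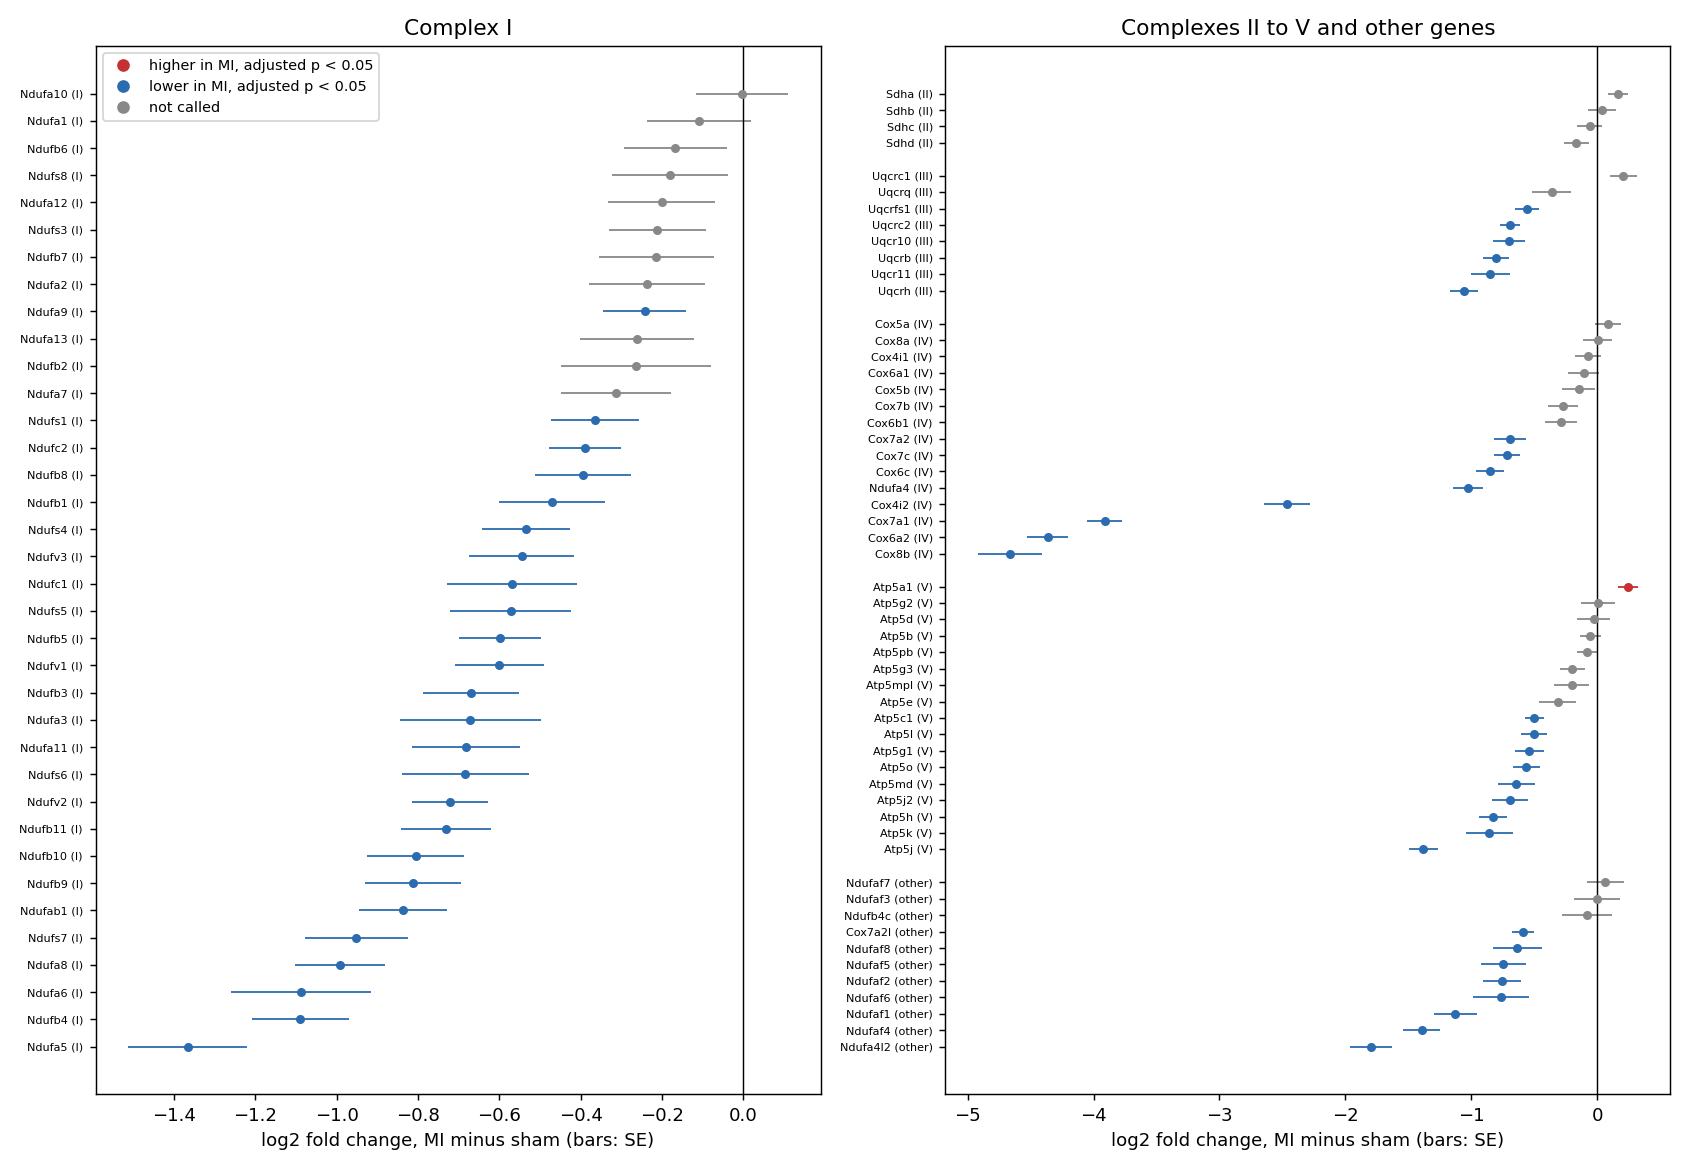
Log2 fold change (MI minus sham, x axis) of the tested members other than 1 complex I gene not drawn, with complex I on the left and complexes II to V and other genes on the right. Points are edgeR estimates and bars are standard errors; the 2 panels have different x scales. Blue marks genes lower in MI, red marks Atp5a1, the 1 gene higher in MI (it turns to -0.11 with scaling to total counts), and grey marks those that did not pass. The muscle isoforms Cox8b, Cox6a2 and Cox7a1 lie farthest to the left, and the 4 complex II genes lie around 0.

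Complex I takes electrons from NADH. Of its 37 genes, 26 were lower in MI, none was higher and 11 did not pass, with a median log2 fold change of -0.54 and a range from -1.37 to -0.00. Thus 70.3% were lower, against 36.9% lower and 36.4% higher over all genes tested. Complex I transcripts made up 0.442% ± 0.0416 of all TPM in MI libraries and 0.717% ± 0.0158 in sham libraries (SD, n = 3 each). Ndufa5, an accessory subunit of the arm that reaches into the matrix, had 15.8, 23.8 and 19.9 CPM in MI libraries, against 49.7, 52.7 and 51.1 CPM in sham libraries. All 3 MI values lay far below all 3 sham values, with MI 1 the lowest. Ndufa5 was 2.58-fold lower in MI (log2 fold change -1.37 ± 0.15 SE, adjusted p = 4.06e-06 by edgeR's quasi-likelihood test; chr6:24518662-24527690 in GRCm38.p6). Ndufa6, a matrix-arm subunit of the LYR family that binds the mitochondrial acyl carrier protein, had 26.3, 46.1 and 36.1 CPM in MI libraries, against 80.2, 79.1 and 71.2 CPM in sham libraries. The groups did not overlap, although MI libraries spread widely, and the gene was 2.13-fold lower in MI (-1.09 ± 0.17, edgeR adjusted p = 0.000112). Ndufb4, in the membrane arm, had 18.3, 22.7 and 22.1 CPM in MI libraries, against 46.3, 42.1 and 45.8 CPM in sham libraries. It was 2.13-fold lower (-1.09 ± 0.12, edgeR adjusted p = 5.22e-06), but Ndufb4 has a near copy, Ndufb4c, with which its reads may be shared, so its value is uncertain.

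The complex I genes that differed least were also accessory subunits. Ndufa10 had 71.0, 80.4 and 77.6 CPM in MI libraries, against 80.2, 64.5 and 85.1 CPM in sham libraries. The groups overlapped fully, and its log2 fold change was -0.00 (edgeR adjusted p = 0.979). Ndufa1, a small membrane-arm subunit, averaged 48.4 CPM in MI and 52.2 CPM in sham (-0.11, edgeR adjusted p = 0.458). Ndufb6 averaged 35.3 CPM in MI and 39.6 CPM in sham (-0.17, edgeR adjusted p = 0.253). With log2(TPM + 1), Ndufa1 (-0.28, limma adjusted p = 0.0128) and Ndufb6 (-0.32, limma adjusted p = 0.0123) passed as lower. With total-count scaling, Ndufa10 (-0.35, edgeR adjusted p = 0.0125), Ndufa1 (-0.46, edgeR adjusted p = 0.00536) and Ndufb6 (-0.52, edgeR adjusted p = 0.00267) were lower. The 7 core subunits, which carry the flavin and the iron-sulphur clusters or frame the ubiquinone site, gave 5 lower genes and a median of -0.36. Of these, Ndufs7 was lowest relative to sham (-0.95 ± 0.13), followed by Ndufv2 (-0.72 ± 0.09) and the NADH-binding Ndufv1 (-0.60 ± 0.11). Of the 30 accessory subunits, 21 were lower, with a median of -0.56. The share lower was 71.4% for core and 70% for accessory subunits, against 36.9% of all genes tested.

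Complex II, succinate dehydrogenase, also belongs to the citric acid cycle. None of its 4 genes passed in either direction, with a median log2 fold change of -0.01 and a range from -0.16 to 0.17; with total-count scaling the median was -0.36, equal to that of all genes. The count was also 0 at an unadjusted p below 0.05 by edgeR, and by DESeq2 and limma-voom. Other settings made calls: Sdha passed as higher with RLE scaling and with no filter (0.21 and 0.22), 2 genes were lower with log2(TPM + 1), and 3 were lower with total-count scaling. Sdha, the flavoprotein that oxidises succinate, had 206.9, 217.4 and 228.2 CPM in MI libraries, against 187.3, 202.1 and 191.6 CPM in sham libraries. All MI values lay above all sham values, by a small margin (0.17 ± 0.08, edgeR adjusted p = 0.0752), although with total-count scaling Sdha turned to -0.18. Sdhb, the iron-sulphur subunit, had 80.5, 108.8 and 97.0 CPM in MI libraries, against 96.8, 91.7 and 90.3 CPM in sham libraries, and these overlapped. The membrane anchors Sdhc (-0.06) and Sdhd (-0.16) did not pass either, with edgeR adjusted p = 0.606 for Sdhc and 0.158 for Sdhd. By TPM, complex II made up 0.0550% ± 0.00225 of transcripts in MI libraries and 0.0618% ± 0.00142 in sham libraries (SD, n = 3 each).

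Complex III moves electrons from ubiquinol to cytochrome c. Of its 8 genes, 6 were lower in MI, none was higher and 2 did not pass, with a median log2 fold change of -0.70. Thus 75% were lower, against 36.9% lower and 36.4% higher over all genes tested. Uqcrh, the hinge protein that sits beside cytochrome c1, had 82.5, 109.8 and 95.1 CPM in MI libraries, against 205.7, 210.3 and 182.8 CPM in sham libraries. Every MI value was well below every sham value, and Uqcrh was 2.08-fold lower (-1.06 ± 0.11, edgeR adjusted p = 3.32e-06; chr4:116066965-116075070). Uqcr11, a small membrane subunit, had 31.6, 50.2 and 39.8 CPM in MI libraries, against 68.1, 76.3 and 74.6 CPM in sham libraries. The MI values were again all lower, with MI 1 the lowest, and the gene was 1.80-fold lower (-0.85 ± 0.15, edgeR adjusted p = 0.000309). Uqcrb, a matrix-side subunit, averaged 77.4 CPM in MI and 135.0 CPM in sham (1.75-fold lower, edgeR adjusted p = 2.13e-05). Uqcrfs1, the Rieske iron-sulphur protein, was 1.47-fold lower, with 77.1 to 85.5 CPM in MI and 109.6 to 130.1 CPM in sham (edgeR adjusted p = 0.000206).

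The core proteins of complex III are Uqcrc1 and Uqcrc2. Uqcrc1 had 120.5, 156.7 and 152.7 CPM in MI libraries, against 130.9, 122.0 and 119.0 CPM in sham libraries. MI 2 and MI 3 lay above all sham libraries and MI 1 fell among them (0.21 ± 0.11, edgeR adjusted p = 0.102; -0.14 with total-count scaling). Uqcrc2 had 105.8, 105.0 and 107.1 CPM in MI libraries, against 174.7, 171.0 and 168.4 CPM in sham libraries, and was 1.62-fold lower (-0.69 ± 0.08, edgeR adjusted p = 5.71e-06). The difference between these 2 genes was not tested. Uqcrq, a small membrane subunit, stood at the threshold, with 46.6 to 72.6 CPM in MI and 67.4 to 85.5 CPM in sham (-0.36 ± 0.15, edgeR adjusted p = 0.0506). Without MI 2 it passed (-0.52, edgeR adjusted p = 0.00208), as it did without sham 3 (-0.45, edgeR adjusted p = 0.044). With all libraries it passed as lower with the stricter filter, thinning, the replicate block, log2(TPM + 1) and total-count scaling (-0.71, edgeR adjusted p = 0.00103). It did not pass with RLE scaling, DESeq2, no filter or limma-voom, nor without MI 1, MI 3, sham 1 or sham 2.

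Complex IV, cytochrome c oxidase, showed the widest range, from -4.66 to 0.09 on the log2 scale. Of its 15 tested genes, 8 were lower and none was higher. Of its 11 general subunits, 4 were lower, none was higher and 7 did not pass, with a median log2 fold change of -0.27. Without MI 1 that median was -0.12, with 4 genes lower and 1 higher. With all libraries, 36.4% of these 11 were lower, near the 36.9% of all genes tested. None was higher, however, against 36.4% of all genes tested. By TPM, the general subunits made up 0.3868% to 0.4745% of transcripts in MI libraries and 0.6164% to 0.6314% in sham libraries, without overlap. Of the 15 tested complex IV genes, 13 were lower with log2(TPM + 1) and all 15 with total-count scaling. Ndufa4, long counted as a complex I gene and later found in complex IV, had 56.8, 80.0 and 70.5 CPM in MI libraries, against 139.1, 148.4 and 134.8 CPM in sham libraries. The groups lay far apart, and Ndufa4 was 2.04-fold lower (-1.03 ± 0.12, edgeR adjusted p = 9.4e-06). The other lower general subunits were the small membrane subunits Cox6c (1.80-fold), Cox7c (1.65-fold) and Cox7a2 (1.61-fold). Cox4i1, the general form of the subunit that binds ATP, had 302.2, 411.3 and 372.5 CPM in MI libraries, against 388.0, 384.7 and 370.9 CPM in sham libraries. These CPM values overlapped (-0.07, edgeR adjusted p = 0.534). In TPM they did not, with 785.5 to 945.2 in MI and 1003.6 to 1056.5 in sham. Cox4i1 passed as lower with log2(TPM + 1) (-0.25, limma adjusted p = 0.0159) and with total-count scaling (-0.43, edgeR adjusted p = 0.00233). Cox5a, a matrix-side subunit, overlapped in CPM as well (0.09, edgeR adjusted p = 0.452). With total-count scaling Cox5a passed as lower (-0.26, edgeR adjusted p = 0.029).

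Muscle isoforms of complex IV differed most among all 92 members tested. Cox6a2, the heart and skeletal muscle form of subunit 6a, had 2.18, 3.02 and 2.39 CPM in MI libraries, against 52.5, 58.6 and 45.6 CPM in sham libraries. All MI libraries were at a low level and all sham libraries at a high one, with a 20.6-fold lower level in MI (-4.36 ± 0.16, edgeR adjusted p = 3.37e-10; chr7:128205435-128206366). Cox7a1, the muscle form of subunit 7a, had 2.60, 3.39 and 3.32 CPM in MI libraries, against 48.8, 45.2 and 46.7 CPM in sham libraries. The groups were again far apart, with a 15.1-fold lower level in MI (-3.91 ± 0.14, edgeR adjusted p = 2.69e-10; chr7:30184171-30186030). Cox8b, the muscle form of subunit 8, had 9, 24 and 14 estimated counts in MI libraries (0.477, 1.27 and 0.727 CPM), against 85, 80 and 79 estimated counts in sham libraries (21.04, 20.55 and 21.82 CPM). It was 25.3-fold lower (-4.66 ± 0.25, edgeR adjusted p = 8.87e-09; chr7:140898942-140900446). Without MI 1 the log2 fold changes were -4.24 for Cox6a2, -3.78 for Cox7a1 and -4.36 for Cox8b. Both Cox7a1 and Cox8b are also known from brown fat.

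Of the 3 general partners of these isoforms, 1 was lower in MI by the same test and the other 2 did not pass. Cox6a1 had 105.4, 152.4 and 138.9 CPM in MI libraries, against 134.1, 144.3 and 149.1 CPM in sham libraries, and these CPM values overlapped (-0.11, edgeR adjusted p = 0.453). In TPM they did not, with 388.7 to 497.2 in MI and 518.1 to 573.0 in sham. Cox6a1 passed as lower with log2(TPM + 1) (-0.28, limma adjusted p = 0.0213) and with total-count scaling (-0.46, edgeR adjusted p = 0.00488). Cox8a had 98.9, 139.4 and 120.3 CPM in MI libraries, against 117.8, 118.9 and 120.9 CPM in sham libraries, with a log2 fold change of 0.00 (edgeR adjusted p = 0.978) that turned to -0.35 with total-count scaling (edgeR adjusted p = 0.0159). Cox7a2 had 73.52, 109.1 and 90.01 CPM in MI libraries, against 152.9, 144.6 and 142.2 CPM in sham libraries. It was lower in all MI libraries, though far less so than Cox7a1 (-0.69 ± 0.13, edgeR adjusted p = 0.000416). Cox7a2l, a relative that helps join complexes III and IV into supercomplexes, averaged 172.3 CPM in MI and 258.7 CPM in sham (1.501-fold lower, edgeR adjusted p = 6.92e-05).

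Each isoform was then set against its partner within every library. In TPM, Cox6a2 averaged 6.96 ± 0.811 in MI libraries and 161.5 ± 20.6 in sham libraries, beside 453.8 ± 57.4 in MI and 550.2 ± 28.6 in sham for Cox6a1. The muscle form thus held 1.52% ± 0.14 of the pair's TPM in MI libraries and 22.7% ± 2.61 in sham libraries (SD, n = 3 each). Cox7a1 held 6.94% ± 0.592 of its pair with Cox7a2 in MI libraries and 41.3% ± 0.754 in sham libraries. Cox8b held 1.04% ± 0.342 of its pair with Cox8a in MI libraries and 21.8% ± 0.342 in sham libraries. General forms were the more abundant member of every pair in both groups. The log2 ratio of muscle to general form, from CPM with 0.5 added, differed by -4.00 for Cox6a2 to Cox6a1, by -3.02 for Cox7a1 to Cox7a2 and by -4.06 for Cox8b to Cox8a (MI minus sham). Every MI ratio lay below every sham ratio in all 3 pairs. The exact two-sided permutation p was 0.1 for each, the smallest that 3 libraries against 3 allow, and 0.1 after adjustment over the 5 ratios computed.

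A pair of other isoforms known for their response to low oxygen and their expression in pericytes moved the same way. Cox4i2 had 3.18, 5.08 and 4.88 CPM in MI libraries, against 23.76, 24.91 and 24.02 CPM in sham libraries. It was 5.52-fold lower (-2.46 ± 0.18, edgeR adjusted p = 1.43e-07), and its share of the TPM of Cox4i1 and Cox4i2 was 1.21% ± 0.132 in MI libraries and 6.12% ± 0.172 in sham libraries (SD, n = 3 each). Ndufa4l2 had 7.90, 11.6 and 10.5 CPM in MI libraries, against 40.3, 30.8 and 33.1 CPM in sham libraries, and was 3.47-fold lower (-1.80 ± 0.17, edgeR adjusted p = 1.06e-06). The log2 ratio to the partner differed by -2.28 for Cox4i2 to Cox4i1 and by -0.72 for Ndufa4l2 to Ndufa4 (MI minus sham), with an exact two-sided permutation p of 0.1 for each.

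**Figure D2:**
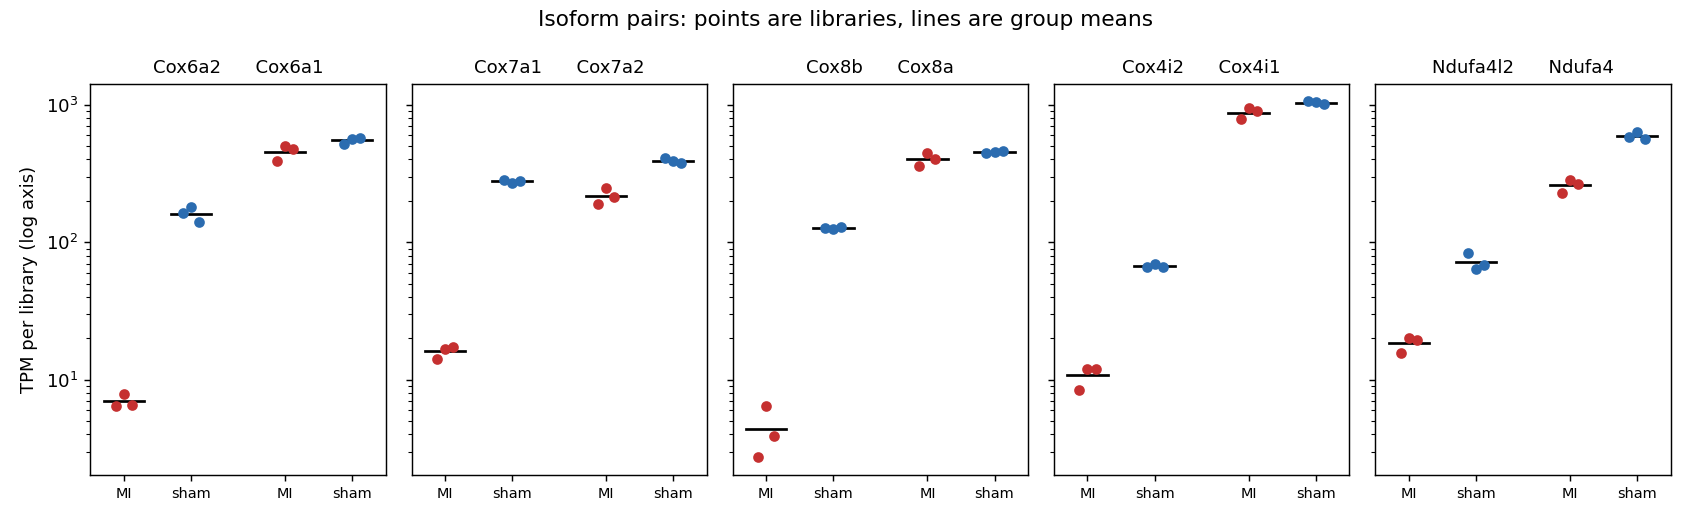
Level of each isoform and its partner in every library, for 5 pairs of genes, in TPM on a log axis. MI libraries stand left of sham libraries; each point is 1 library and lines are group means. Cox6a2, Cox7a1 and Cox8b lie far lower in all 3 MI libraries, with Cox6a2 at 6.96 ± 0.811 TPM in MI and 161.5 ± 20.6 TPM in sham (SD, n = 3 each), while Cox6a1 lies at 453.8 ± 57.4 TPM in MI and 550.2 ± 28.6 TPM in sham.

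Markers of several cell types moved together with these isoforms. Of 16 cardiomyocyte markers, 15 were lower in MI and 1 (Atp2a2) did not pass, with a median log2 fold change of -4.00; their summed level was 621.9 to 649.3 CPM in MI libraries and 4776 to 4893 CPM in sham libraries, and none was at 0. All 12 pericyte and smooth muscle markers were lower, with a median of -1.72 and sums of 880.3 to 887.2 CPM in MI and 3256 to 3270 CPM in sham. Skeletal muscle markers summed to 7.48 to 8.74 CPM in MI and 25.0 to 37.0 CPM in sham. Of the 4 tested, Acta1 (-3.35) and Mylpf (-2.82) were lower, Tnni2 (3.02) was higher and Tnnt3 did not pass, and Myh4 was at 0 in every MI library. Brown fat markers summed to 4.30 to 5.03 CPM in MI and 7.42 to 9.94 CPM in sham; of 3 tested, Ucp1 was higher in MI and the other 2 lower, and Elovl3 and Adrb3 were at 0 in sham. The 10 neutrophil markers summed to 723.4 to 908.4 CPM in MI and 45.2 to 54.9 CPM in sham, with 9 higher of 9 tested and Ngp at 0 in sham. The 14 macrophage and monocyte markers were all higher, the 12 pan-endothelial markers all lower, the 5 red blood cell markers all lower (61.2 to 88.2 CPM in MI and 1735 to 1798 CPM in sham), and the 8 fibroblast markers gave 4 higher and 4 lower. The part of these markers in the differences of the respiratory chain genes was not tested.

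**Figure D3:**
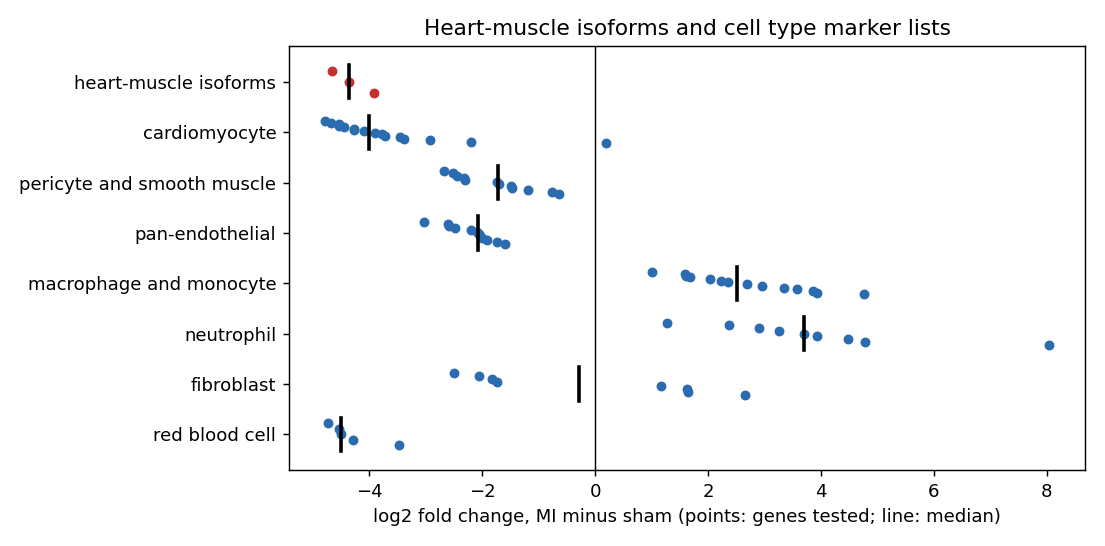
Log2 fold change (MI minus sham, x axis) of each tested gene in the muscle isoform group and in 7 lists of cell type markers; points are genes and black lines are medians. The muscle isoforms have a median of -4.36 and the cardiomyocyte markers one of -4.00, with Atp2a2 alone to the right of 0 (0.19, not passing the test), while macrophage and monocyte markers have a median of 2.52.

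Promoter windows of 2 muscle isoforms and 2 general partners are shown as examples of both kinds of complex IV gene. Windows came from RefSeq (GRCm38.p6) and run from 250 bases before the gene start to 50 bases after it, on the gene's own strand, 5′ to 3′. Of the 95 members, 77 had a window, 82 windows in all; Cox6a2 had none. Capitals mark matches, on either strand, to 7 patterns. The core of sites for nuclear respiratory factor NRF1 was searched as GCGCATG. The ETS site bound by GABPA, another factor known for respiratory genes, was searched as CCGGAAG. The core of sites for the zinc finger factor YY1 was searched as ATGGCGG. Sites for the oestrogen-related receptors, known regulators of energy metabolism in heart, were searched as AAGGTCA. The muscle regulator MEF2 was searched by its palindromic site. The E-box, bound by basic helix-loop-helix factors, was searched as CAGCTG. The TATA box, a core element found near the start of many tissue-restricted genes, was searched as TATAAA. A match describes letters in the window and not a bound factor.
Cox7a1 (chr7:30183921-30184220, plus strand): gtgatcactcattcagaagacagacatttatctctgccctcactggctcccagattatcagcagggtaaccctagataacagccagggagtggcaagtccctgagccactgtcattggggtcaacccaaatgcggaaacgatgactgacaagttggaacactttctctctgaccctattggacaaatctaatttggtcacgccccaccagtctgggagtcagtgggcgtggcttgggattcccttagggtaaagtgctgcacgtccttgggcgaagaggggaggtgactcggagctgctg
Cox8b (chr7:140900397-140900696, minus strand): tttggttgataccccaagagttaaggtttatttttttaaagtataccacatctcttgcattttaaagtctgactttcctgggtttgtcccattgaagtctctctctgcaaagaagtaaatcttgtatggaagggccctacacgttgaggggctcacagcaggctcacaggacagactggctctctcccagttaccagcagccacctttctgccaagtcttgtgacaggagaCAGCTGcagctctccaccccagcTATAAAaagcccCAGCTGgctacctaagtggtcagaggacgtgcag
Cox6a1 (chr5:115348909-115349208, minus strand): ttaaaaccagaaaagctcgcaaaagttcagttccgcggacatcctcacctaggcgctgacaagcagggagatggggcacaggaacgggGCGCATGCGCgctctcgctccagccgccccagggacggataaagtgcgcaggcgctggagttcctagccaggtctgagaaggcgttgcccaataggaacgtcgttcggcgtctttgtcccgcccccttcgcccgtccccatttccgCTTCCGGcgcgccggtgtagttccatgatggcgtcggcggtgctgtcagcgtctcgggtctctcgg
Cox8a (chr19:7217567-7217866, minus strand): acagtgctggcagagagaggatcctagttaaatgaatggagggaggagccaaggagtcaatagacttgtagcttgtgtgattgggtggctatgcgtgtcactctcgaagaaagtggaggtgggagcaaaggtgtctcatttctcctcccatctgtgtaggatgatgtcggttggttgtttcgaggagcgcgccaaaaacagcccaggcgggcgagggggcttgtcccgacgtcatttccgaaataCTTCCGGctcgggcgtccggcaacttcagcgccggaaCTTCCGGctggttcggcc

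The 2 muscle windows held none of the NRF1 or ETS patterns: Cox8b had 2 E-box matches and 1 TATA box match, and Cox7a1 had no match. The E-box matches of Cox8b began at offsets of -19 and 16 bases from the annotated gene start. Its TATA box match began at an offset of 4 bases, after that start. The general windows shown held ETS matches, 1 in Cox6a1 and 2 in Cox8a, and Cox6a1 also had the NRF1 core on both strands in 1 overlapping run. Of the 70 windows of complexes I to V without tissue isoforms, 24.3% held the ETS pattern and 18.6% the NRF1 core. Most general windows thus lacked each pattern too, and the windows shown are examples that do not compare the 2 kinds of gene. Over all members, 18.3% of windows held the NRF1 core, against 3.91% of the 32851 RefSeq windows, and 23.2% held the ETS pattern, against 8.86% of all. The YY1 core stood in 15.9% of member windows and 4.05% of all, and the AAGGTCA pattern in 9.76% of member windows and 4.72% of all. The E-box was in 7.32% of member windows and 16.3% of all, the TATA box in 11% of member windows and 13.6% of all, and the MEF2 pattern in 2.44% of member windows and 3.69% of all.

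Complex V makes ATP in its F1 head, which a peripheral stalk holds to the membrane part. Of its 17 genes, 9 were lower, 1 was higher and 7 did not pass, with a median log2 fold change of -0.50. Thus 52.9% were lower, against 36.9% lower and 36.4% higher over all genes tested. The 5 genes of the F1 head and central stalk had a median of -0.05, with 1 lower and 1 higher; without MI 1 the median was 0.04. Atp5a1, the alpha subunit of the F1 head, had 606.5, 689.0 and 670.0 CPM in MI libraries, against 568.0, 554.2 and 537.1 CPM in sham libraries. All MI values lay above all sham values by a narrow margin (0.24 ± 0.08, 1.18-fold higher, edgeR adjusted p = 0.0125). This call was lost without MI 3 (0.23, adjusted p = 0.0626), without sham 3 (0.23, adjusted p = 0.0574), and with log2(TPM + 1) (0.08, limma adjusted p = 0.24), and the value turned to -0.11 with total-count scaling (edgeR adjusted p = 0.211). Atp5b, the catalytic beta subunit, overlapped between groups with 748.8 to 879.2 CPM in MI and 835.3 to 881.3 CPM in sham (-0.05, edgeR adjusted p = 0.569). In TPM it did not overlap, with 738.0 to 799.9 in MI and 858.1 to 911.6 in sham. Atp5c1, the gamma subunit of the rotating central stalk, was 1.42-fold lower (edgeR adjusted p = 7.61e-05). Atp5d (-0.03, or 0.01 with RLE scaling) and Atp5e (-0.31) of the same stalk did not pass. With total-count scaling, Atp5b (-0.40, edgeR adjusted p = 0.000594), Atp5d (-0.38, edgeR adjusted p = 0.019) and Atp5e (-0.67, edgeR adjusted p = 0.0011) were lower.

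Of the 4 peripheral stalk genes, 3 were lower with a median of -0.70 over the 4, and of the 5 other membrane genes, 4 were lower with a median of -0.64. The share lower over all genes tested was 36.9%. Atp5j, coupling factor 6 of the peripheral stalk, had 90.8, 127.0 and 118.8 CPM in MI libraries, against 296.7, 293.8 and 286.4 CPM in sham libraries. The MI libraries were far below the sham libraries, and Atp5j was 2.61-fold lower (-1.38 ± 0.12, edgeR adjusted p = 4.18e-07; chr16:84827871-84835857). Atp5h, subunit d of the same stalk, had 106.6, 144.6 and 129.4 CPM in MI libraries, against 238.6, 209.1 and 229.2 CPM in sham libraries. It was 1.78-fold lower without overlap (-0.83 ± 0.11, edgeR adjusted p = 3.03e-05). Atp5k, subunit e, which helps ATP synthases pair into dimers, had 22.9, 42.7 and 32.3 CPM in MI libraries, against 60.4, 53.9 and 63.0 CPM in sham libraries (1.81-fold lower, edgeR adjusted p = 0.00147). In contrast, Atp5pb, subunit b of the peripheral stalk, overlapped between groups in CPM (-0.08, edgeR adjusted p = 0.363). In TPM it did not, with 341.1 to 361.2 in MI and 394.0 to 431.2 in sham. With total-count scaling Atp5pb was lower (-0.43, edgeR adjusted p = 0.000311).

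The c ring, which turns with the flow of protons, is built from 1 protein encoded by Atp5g1, Atp5g2 and Atp5g3. Atp5g1 was 1.45-fold lower in MI (-0.54 ± 0.11, edgeR adjusted p = 0.00111), with 56.1, 74.9 and 70.3 CPM in MI libraries, against 101.5, 96.1 and 94.7 CPM in sham libraries. Atp5g2 (0.01, edgeR adjusted p = 0.965; -0.34 with total-count scaling) and Atp5g3 (-0.20, edgeR adjusted p = 0.101) did not pass. The median of the 3 genes was -0.20 with all libraries and -0.08 without MI 1. Of the TPM of the 3 genes, Atp5g1 held 15.7%, 15.3% and 16.5% in MI libraries, against 20.7%, 19.6% and 19.6% in sham libraries. Atp5g2 held 34.7%, 37.7% and 36.5% in MI libraries, against 29.5%, 30.9% and 34.7% in sham libraries. Shares of Atp5g1 did not overlap between groups, and Atp5g2 in MI 1 lay just below sham 3.

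Complex I assembly factors, which help build the complex without staying in it, were lower for 6 of 8 genes, with a median log2 fold change of -0.75. Among all genes tested, 36.9% were lower and 36.4% higher. Ndufaf4 had 6.79, 7.15 and 7.32 CPM in MI libraries, against 21.04, 18.75 and 16.02 CPM in sham libraries, and was 2.63-fold lower (-1.39 ± 0.15, edgeR adjusted p = 4.12e-06). Ndufaf1 had 6.15, 5.24 and 6.02 CPM in MI libraries, against 14.8, 11.8 and 11.3 CPM in sham libraries (2.18-fold lower, edgeR adjusted p = 8.81e-05). Neither gene overlapped between groups. Over a wider list of 46 assembly factors for all complexes, 45 were tested, 28 were lower and 4 higher, with a median of -0.48; 8 of these are the members named above. Coa5, which takes part in complex IV assembly, was higher, at 97.7 ± 10.8 CPM in MI and 45.9 ± 3.81 CPM in sham (SD, n = 3 each), while Uqcc3, a complex III assembly factor, averaged 10.5 CPM in MI and 25.9 CPM in sham (-1.31).

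Neighbouring steps of the chain were read from lists of their own. Of 20 tested electron carriers and other entry points, 12 were lower and 2 higher, with a median log2 fold change of -0.41. The shares over all genes tested were 36.9% lower and 36.4% higher. Cycs, cytochrome c, averaged 143.1 ± 3.31 CPM in MI libraries and 226.8 ± 2.54 CPM in sham libraries (SD, n = 3 each), 1.59-fold lower (edgeR adjusted p = 6.33e-06). Coq9 and Coq10a, which act in ubiquinone synthesis and handling, differed by -1.21 and -0.83 on the log2 scale. Genes encoded in mitochondrial DNA were not analysed here.

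Among the 3 MI libraries, MI 1 was lowest for most members. It was the lowest of the 3 at 85 of 92 members, or 92.4%, against 43.4% of all genes tested. The 7 exceptions were Ndufaf1, Ndufaf2, Ndufaf5, Ndufaf6, Ndufaf7, Ndufs1 and Uqcrc2. The median log2 difference of MI 1 from the mean of MI 2 and MI 3 was -0.34 over the members and -0.00 over all genes tested. Relative to the sham mean, the members' median was -0.71 in MI 1, -0.39 in MI 2 and -0.50 in MI 3, while the sham libraries lay at 0.03, 0.01 and -0.04. For complex I it was -0.72 in MI 1, -0.31 in MI 2 and -0.51 in MI 3, and for complex III -0.85 in MI 1, -0.53 in MI 2 and -0.66 in MI 3. General complex IV subunits gave -0.54 in MI 1, -0.04 in MI 2 and -0.22 in MI 3. Complex V gave -0.68 in MI 1, -0.33 in MI 2 and -0.47 in MI 3, and complex II gave -0.23 in MI 1, 0.13 in MI 2 and 0.01 in MI 3.

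Without MI 1, 56 members were lower and 6 higher, with a members' median of -0.44 and a median of all genes of -0.00. Among all genes tested without MI 1, 40.1% were lower and 40.9% higher, against 36.9% and 36.4% with all libraries. Among the members, the test lost 1 call and gained 5. The 5 calls gained were all higher in MI: Uqcrc1 at 0.34 (edgeR adjusted p = 2.35e-05), Sdha at 0.23 (0.00112), Cox5a at 0.18 (0.0279), Sdhb at 0.17 (0.0333) and Atp5g2 at 0.17 (0.0444). Atp5a1 was 0.32 without MI 1. The medians without MI 1 were -0.43 for complex I, 0.11 for complex II, -0.61 for complex III, -0.53 for complex IV and -0.37 for complex V. Complex II was the highest with and without MI 1. Complexes III and IV lay close with all libraries (-0.70 and -0.69), and without MI 2 complex IV was below complex III (-0.83 against -0.75). The complex IV median includes the tissue isoforms, and its general subunits alone gave -0.12 without MI 1.

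**Figure D4:**
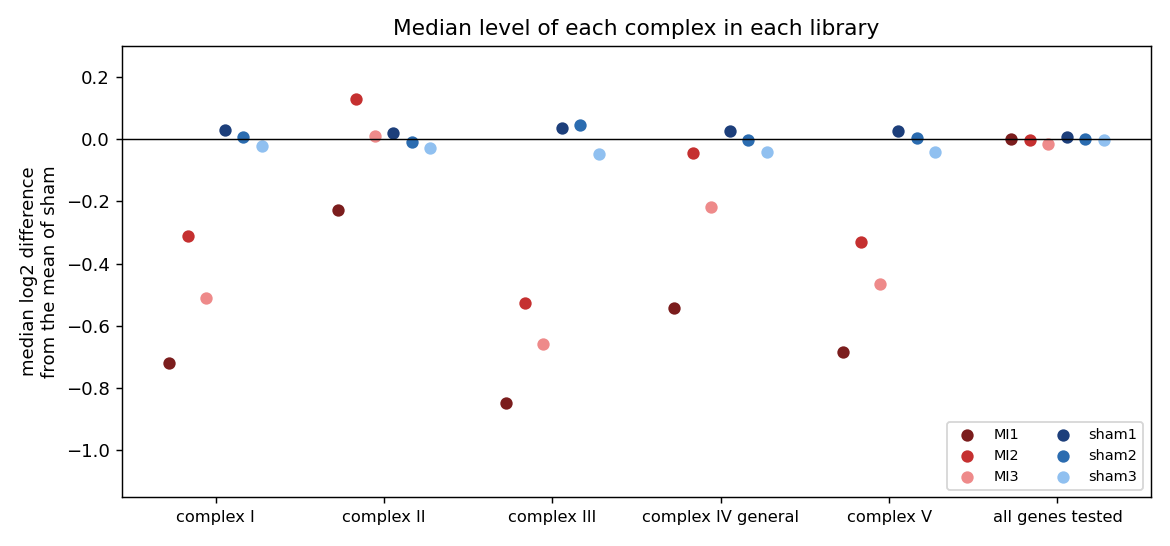
Median log2 difference from the sham mean, over the genes of each complex, in each MI library and each sham library, with MI left of sham; the y axis is log2 CPM relative to the mean of the sham libraries. MI 1 is the lowest library for every complex shown, at -0.72 for complex I, and complex II lies between -0.23 and 0.13 in the MI libraries. With total-count scaling the complex II median over all libraries is -0.36, equal to that of all genes.

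Transcript length moved with both patterns. The members' principal protein-coding transcripts had a median length of 849.5 bases, against 2929 bases over all genes tested, with lengths for 90 of the 92 tested members. Across members, length and log2 fold change had a Spearman rho of 0.29 (n = 90 genes, which share the same 6 libraries), against 0.01 over all genes. Among members up to 800 bases the median log2 fold change was -0.67 (n = 44), between 800 and 1200 bases it was -0.59 (n = 21), and above 1200 bases it was -0.26 (n = 25). Leaving out tissue isoforms and genes outside complexes I to V gave -0.61 (n = 38), -0.50 (n = 17) and -0.26 (n = 21). The shares lower in these length ranges were then 63.2%, 52.9% and 52.4%. All genes in the same length ranges had medians of -0.16 (n = 423), -0.06 (n = 841) and -0.00 (n = 11837), and 37.8% of the 423 shortest were lower, against 68.2% of the 44 shortest members. The difference of MI 1 from the other MI libraries followed length in all genes: the Spearman rho was 0.48 over members and 0.51 over all genes, and genes up to 800 bases had a median of -0.38 among members and -0.34 among all genes. The part of transcript length in these differences was not tested.

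**Figure D5:**
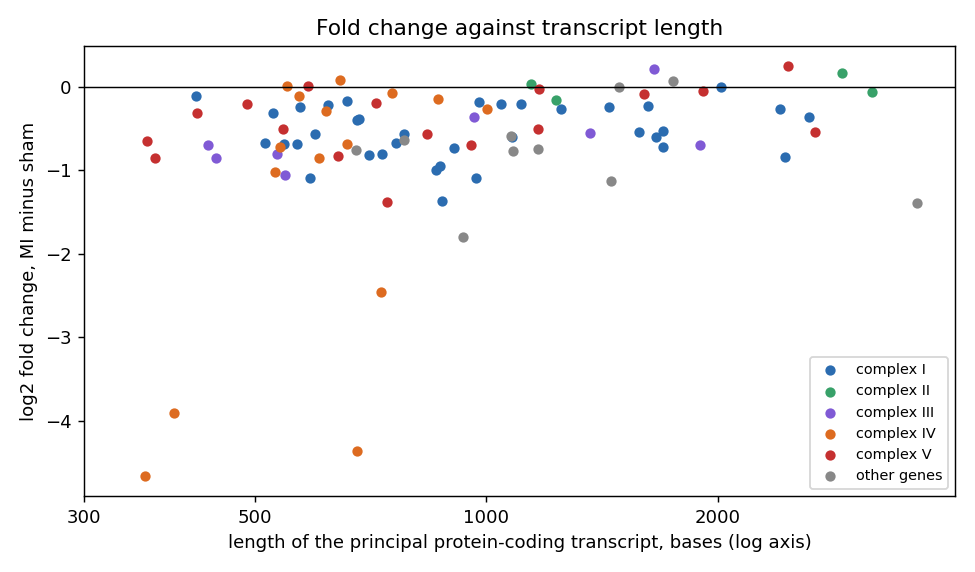
Log2 fold change (MI minus sham) against the length of the principal protein-coding transcript in bases (log axis) for the 90 tested members with a length; colours mark the complex. Members up to 800 bases have a median of -0.67 and those above 1200 bases have a median of -0.26, and the muscle isoforms lie at the lower left, with Cox8b at -4.66.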

How the data were processed

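RNA of 3 MI and 3 sham libraries was measured by sequencing. Unscaled estimated counts for each gene and the TPM that the authors computed were taken from the deposited table, per the file headers. The genome build GRCm38.p6 and, without a role, the microarray software Agilent Feature Extraction 9.1 appear in the submitters' processing notes. Aligner, counter, annotation and strand setting are not given in the sources used here. Another 12 per-sample columns of the deposited table, in other units, were not used. Groups and replicate numbers came from the sample titles.

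The estimated counts were first rounded. The quasi-likelihood model of edgeR 4.0.16 (R 4.3.3) had group as its single term, TMM scaling and the 13370 genes that filterByExpr kept. The threshold was 0.05 on two-sided p-values adjusted across those genes by Benjamini and Hochberg's method. CPM use TMM-adjusted library sizes, and fold changes are MI minus sham. Sham libraries, with 3206732 to 3591473 counts, limit the precision at low counts; the common biological coefficient of variation was 0.103. Ratios of isoforms used log2(CPM + 0.5) and an exact permutation test. On counts simulated for MI against sham (13370 genes, 200 of them changed), 82% of 2-fold and 46% of 1.5-fold changes were recovered, with 12 false calls among 140. The data gave far more calls (4861 higher and 4940 lower), and the adjusted threshold depends on that number. The simulated rates therefore do not give the rates of recovery or of false calls in the data. Alternatives were RLE and total-count scaling, DESeq2 1.42.0, limma 3.58.1 trend on log2(TPM + 1), other filters, thinning, a minimum fold change of 2, a replicate block, each library left out and, chosen after seeing the data, limma-voom.

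The members, gene lists and marker lists were chosen with earlier results of these data known. Named genes are the paired isoforms, up to 3 genes with the highest and 3 with the lowest fold change per complex with a mean of at least 5 CPM in either group, and up to 3 genes with the smallest p per pathway list. Other genes were named to complete a class (F1 head, c ring), to fill a count or for their role, after their values were seen; classes of subunits follow textbook roles. The values of 1 complex I gene are not reported here, although counts and medians include it. Gene positions, lengths and promoter windows came from reference tables and annotation of GRCm38.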

Additional observations from a re-analysis of the deposited data

How the results depend on the processing

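Counts of members lower in MI ranged from 55 to 86 over 10 scalings, tests and filters other than a minimum fold change, and those higher from 0 to 2. Scaling to total counts gave 86 lower and 0 higher, with medians of -0.9 (complex I), -0.36 (II), -1.05 (III), -1.04 (IV) and -0.85 (V); log2(TPM + 1) gave 80 lower, 0 higher and -0.86 for complex III. RLE scaling and no filter gave 2 higher, and a minimum fold change of 2 gave 8 lower and 0 higher, against 15.3% of all genes lower. Leaving out each library gave 53 to 71 lower and 0 to 6 higher, with medians of -0.62 to -0.43 (I), -0.11 to 0.11 (II), -0.75 to -0.61 (III), -0.83 to -0.53 (IV) and -0.53 to -0.37 (V), and ratio differences of -4.13 to -3.92 (Cox6a2), -3.06 to -2.94 (Cox7a1) and -4.18 to -3.99 (Cox8b). The number was 6 higher without MI 1 and 0 without MI 3 or sham 3. The replicate block gave 60 lower (55 shared) and 1 higher; same-numbered libraries had correlations of -0.0679, -0.0365 and 1e-04, so the numbers were not taken as pairs. Of 510 values for 34 named genes, 45 changed sign, 4 lost the call (1 of them with a change of sign) and 32 gained one (4 of them with a change of sign). The genes that changed sign had reported log2 values of -0.11 to 0.24. With total counts they were Atp5a1 -0.11, Atp5g2 -0.34, Cox5a -0.26, Cox8a -0.35, Sdha -0.18, Sdhb -0.31 and Uqcrc1 -0.14. With TPM they were Atp5g2 -0.17, Cox5a -0.08, Cox8a -0.17 and Sdhb -0.13. With RLE scaling and DESeq2, Atp5d was 0.01 and Ndufa10 0.04, and with no filter Atp5d was 0.03 and Ndufa10 0.05. The stricter filter gave Atp5g2 -0.04, Cox8a -0.04 and Sdhb -0.01, and thinning gave Atp5g2 -0.05, Cox8a -0.04 and Sdhb -0.05. The replicate block and voom gave Atp5g2 -0.01, Cox8a -0.01 and Ndufa10 0. Leaving out each library gave ranges that crossed or reached 0 for Atp5d -0.19 to 0.13, Atp5g2 -0.14 to 0.17, Cox4i1 -0.18 to 0.06, Cox5a -0.01 to 0.18, Cox6a1 -0.22 to 0.06, Cox8a -0.12 to 0.15, Ndufa1 -0.25 to 0.02, Ndufa10 -0.11 to 0.08, Sdhb -0.07 to 0.17 and Sdhc -0.14 to 0.05. The cause of these changes was not tested beyond the shift of all genes under total counts.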

Other observations

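Citric acid cycle enzymes, which feed electrons to the chain, were lower at 10 of 17 genes and higher at 3, with a median log2 fold change of -0.32. Among all genes tested, 36.9% were lower and 36.4% higher, with a median of -0.01. Idh2, mitochondrial isocitrate dehydrogenase, averaged 85.3 ± 6.99 CPM in MI libraries and 158.8 ± 11.1 CPM in sham libraries (SD, n = 3 each), Sucla2 differed by -0.86 and Pdha1 by -0.64. The 3 higher genes were Cs at 0.20, Ogdh at 0.24 and Dlst at 0.27. Of 15 regulators of mitochondrial biogenesis, 7 were lower and 3 higher, with a median log2 fold change of -0.08, near that of all genes. Ppargc1a, a coactivator of mitochondrial genes that also stands in the brown fat list, had 5, 3 and 5 estimated counts in MI libraries, against 13, 12 and 17 in the far shallower sham libraries (0.228 CPM in MI and 3.66 CPM in sham on average). Tfam, which packages mitochondrial DNA, averaged 15.0 CPM in MI and 30.1 CPM in sham, and Ppara differed by -3.26. Pprc1 (0.95), Gabpb1 (0.51) and Esrra (0.47) were higher in MI.

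Of 9 tested genes of mitochondrial ATP export, 4 were lower in MI and 5 higher, with a median log2 fold change of 0.43. Among all genes tested, 36.9% were lower and 36.4% higher. The muscle forms Ckmt2 (2.04 ± 0.336 CPM in MI and 65.1 ± 2.55 CPM in sham), Ckm (4.66 ± 0.46 CPM in MI and 90.5 ± 4.5 CPM in sham; also in the cardiomyocyte list) and the ADP/ATP carrier Slc25a4 (128.4 ± 10.9 CPM in MI and 474.4 ± 10.6 CPM in sham; SD, n = 3 each) were lower. Slc25a5, the carrier of many other tissues, was higher at 346.3, 406.3 and 380.1 CPM in MI libraries, against 280.6, 280.2 and 281.4 CPM in sham libraries, and Ckb, the brain-type creatine kinase, differed by 1.20. The others were Vdac3, which was lower (-0.32), and Vdac1 (0.43), Vdac2 (0.85) and the phosphate carrier Slc25a3 (0.44), which were higher. Cardiomyocyte markers summed to 621.9 to 649.3 CPM in MI and 4776 to 4893 CPM in sham, and their part in these differences was not tested.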
